A study of Mus musculus with 6 samples.

Results

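The genes described here are the leptin receptor gene Lepr and 8 genes whose products act in JAK-STAT signalling below it, namely Jak2, Stat3, Stat5a, Stat5b, Socs3, Ptpn1, Ptpn11 and Sh2b1. They were chosen by symbol, and all 9 were found among the 23955 symbols of the deposited table. Each had a mean of at least 1 TPM (a transcript abundance scaled to the same total in each library and corrected for transcript length) over the libraries, so 9 of 9 stood among the 11931 genes tested. The tested animals were db/db mice, which carry the db mutation of Lepr on both alleles and are obese, and their WT littermates were the controls. Both groups were of the C57BL/6 strain and 4 months old. Haematopoietic stem cells (HSCs) were sorted from marrow as CD150+ CD48- LSK cells (lineage-negative, Sca-1+ and c-Kit+), 20000 cells per library. There were 3 experiments with 1 db/db and 1 WT library each, so n = 3 per group. Whether marrow of several mice was pooled for a library is not stated. The db mutation is present in every tissue of these mice, so receptor loss in the HSC and obesity of the host cannot be told apart.

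Leptin, a hormone made by adipocytes in proportion to fat mass, binds a cytokine receptor that has no kinase of its own. The kinase JAK2 sits on the long form of the receptor and phosphorylates it. STAT3 and STAT5 dock there, enter the nucleus as dimers and switch on genes, among them Socs3, whose product then blocks the receptor and JAK2. The phosphatase PTP1B, encoded by Ptpn1, removes phosphate from JAK2, SHP2, encoded by Ptpn11, links the receptor to the MAP kinase pathway, and the adaptor SH2B1 strengthens JAK2 activity. In HSCs the same JAK2 and STAT5 also serve receptors of blood cytokines. In the hypothalamus, where the pathway is best known, it restrains appetite.

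TPM values keep no record of depth, so no counting error is attached to any value below. Median-of-ratios size factors of the libraries ran from 0.915 to 1.23 in db/db and from 0.815 to 1.14 in WT. All 14 listed HSC markers were above 0 and summed to 2429 to 2838 TPM in db/db and 1735 to 2851 TPM in WT libraries. Granulocyte markers stood apart in WT replicate 1, where their sum was 4917 TPM against 583 and 603 TPM in the other WT libraries, and it was 1804 to 4355 TPM in db/db libraries. In such bulk samples, fewer cells of a type and less RNA per cell cannot be told apart. The 16 lymphoid markers summed to 160 to 256 TPM in db/db and 96.2 to 162 TPM in WT. Ms4a1, Pax5, Cd3e and Cd3g were among 7 of them listed at 0 in every library, while Cd79b was 28.8 to 59.9 TPM in db/db and 32.7 to 60.9 TPM in WT, and Nkg7 was 125 to 200.1 TPM in db/db and 50.7 to 115 TPM in WT. The 12 erythroid markers summed to 991 to 2031 TPM in db/db and 647 to 856 TPM in WT. The 10 megakaryocyte markers summed to 1438 to 1665 TPM in db/db and 1101 to 1372 TPM in WT. Neither list overlapped between genotypes on the deposited scale. Divided by the size factors, the sums of both lists overlap, so that separation depends on the scale. The erythroid gene Hbb-b2, which has close copies, was 256 to 1348 TPM in db/db and 55.1 to 89.3 TPM in WT and was 1 of the genes that passed the test described next (limma adjusted p = 0.00069).

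None of the 9 genes passed the test of db/db against WT HSCs. In limma on log2(TPM + 1) with Benjamini-Hochberg adjustment over all genes, 0 of 9 passed an adjusted p of 0.05, and 0 of 9 had an unadjusted p under 0.05. Of all genes tested, 0.0335%, or 4 genes, passed. The genotypes overlapped for all 9 on the deposited scale, where 7.85% of all genes were higher and 2.32% lower in db/db without overlap. After median-of-ratios scaling 8 of the 9 overlapped and Lepr did not, against 5.67% of all genes higher and 4.75% lower without overlap. Fold changes on the log2 scale were above 0 for 8 of the 9 genes, against 68.1% of all genes, and below 0 for Lepr. The median of all genes was itself 0.18. After median-of-ratios scaling that median was 0.00, and 4 of the 9 genes were above 0, against 50.3% of all genes. Jak2, Ptpn1, Ptpn11 and Sh2b1 changed sign under that scaling, so no direction is given for them.

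**Figure D1:**
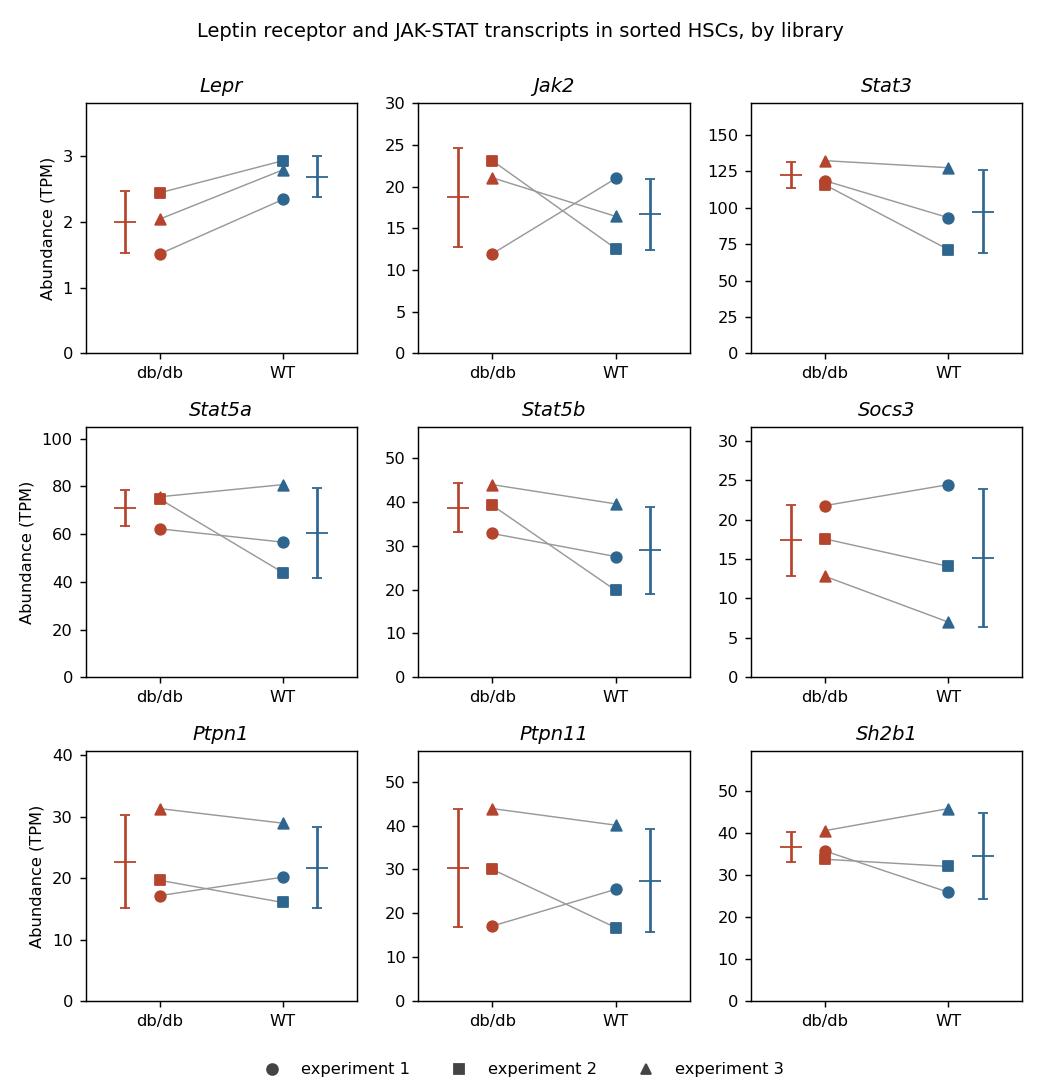
Abundance (TPM, linear axes from 0) of the 9 genes in each library, with db/db to the left of WT in each panel. Symbols mark experiments 1 to 3, lines join the 2 libraries of an experiment, and the bars give the mean ± SD (n = 3). The groups overlap in all 9 panels on this deposited scale, and Lepr is the lowest gene, at 1.51 to 2.44 TPM in db/db and 2.34 to 2.93 TPM in WT libraries.

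Lepr, the receptor itself, was detected in all 6 libraries but at a low level. Its level was 1.51, 2.44 and 2.04 TPM in db/db replicates 1, 2 and 3, and 2.34, 2.93 and 2.79 TPM in WT from the same experiments. The db/db library was the lower in each experiment, by 0.41, 0.19 and 0.32 on the log2(TPM + 1) scale, yet on the deposited scale the groups overlapped, since db/db replicate 2 lay above WT replicate 1. Among all genes, 7.55% were lower in db/db in all 3 experiments. The log2 fold change was -0.31 (SE 0.53), with a 95% interval of -1.41 to 0.80 (limma, Benjamini-Hochberg adjusted p = 0.939), and an exact permutation of the genotype labels, two-sided, gave p = 0.2, the smallest possible being 0.1. After median-of-ratios scaling the levels were 1.65, 2.16 and 1.66 in db/db and 2.56, 3.60 and 2.45 in WT replicates 1, 2 and 3, which do not overlap, as for 4.75% of all genes lower in db/db. The log2 fold change was then -0.45 (limma adjusted p = 0.948) and the exact permutation p was 0.1. In db/db mice the transcript of the long form is mis-spliced, as is known, and a TPM summed over all forms does not show which form was made. Of the distinct stretches of 75 bases, the read length, in the annotated Lepr transcripts, 1.22% also occur in transcripts of other genes.

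Stromal cells of the marrow carry the leptin receptor, so their markers were set beside it. The 23 listed stromal markers summed to 14.8, 25.2 and 18.3 TPM in db/db and 27.2, 13.3 and 15.6 TPM in WT replicates 1, 2 and 3. The ranges of the sums overlapped. The stromal marker of smallest p, the collagen gene Col1a2, was 1.6, 0.59 and 2.18 TPM in db/db and 4.70, 3.98 and 4.42 TPM in WT, lower in db/db in each experiment like Lepr and without overlap (limma adjusted p = 0.919, unadjusted p = 0.0378). The transcription factor genes Ebf3, Foxc1 and Prrx1 and the matrix genes Dcn and Lum, which mark these cells, were among 7 listed at 0 in all 6 libraries. Cxcl12, their most typical product, was 0.497 ± 0.425 TPM in db/db and 0.127 ± 0.0551 TPM in WT (SD, n = 3 each). The sum was led by Hp, a gene that granulocyte precursors also use, and Pdgfrb, which was higher in db/db without overlap. The part of stromal RNA in the Lepr values was not tested. Adipocyte markers summed to 8.11 to 28.7 TPM in db/db and 14.4 to 21.2 TPM in WT, and leptin itself, Lep, was listed at 0 throughout.

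Leprot, which shares its upstream region with Lepr in the genome and whose product regulates how much receptor reaches the cell surface, was far more abundant. It stood at 46.6, 51.3 and 77.5 TPM in db/db and at 49.4, 41.8 and 78.2 TPM in WT replicates 1, 2 and 3. The values overlapped almost completely and were highest in experiment 3 in both genotypes (log2 fold change 0.064, SE 0.32, limma adjusted p = 0.986). The ratio of Leprot to Lepr was 30.0 ± 8.53 in db/db and 21.1 ± 6.88 in WT HSCs (SD, n = 3 each), again with overlap.

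Among the receptors that use Janus kinases and are described here, Lepr lay near the bottom and Il2rg, the common gamma chain, at the top. Il6st, the shared signal-transducing chain gp130, was 19.7 ± 2.11 and 19.7 ± 10.9 TPM in db/db and WT. Il6ra, the interleukin-6 binding chain, was 3.42 ± 1.40 and 2.52 ± 0.302 TPM, and Lifr, the receptor of leukaemia inhibitory factor, was 0.270 ± 0.149 and 0.373 ± 0.0839 TPM (db/db and WT in each pair, SD, n = 3). Csf3r, the G-CSF receptor, was 78.4 ± 14.7 and 66.0 ± 29.5 TPM in db/db and WT. Cntfr, Il2rb, Il13ra1 and Il7r, whose product CD127 was in the lineage stain of the sort, were listed at 0 in every library.

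**Figure D2:**
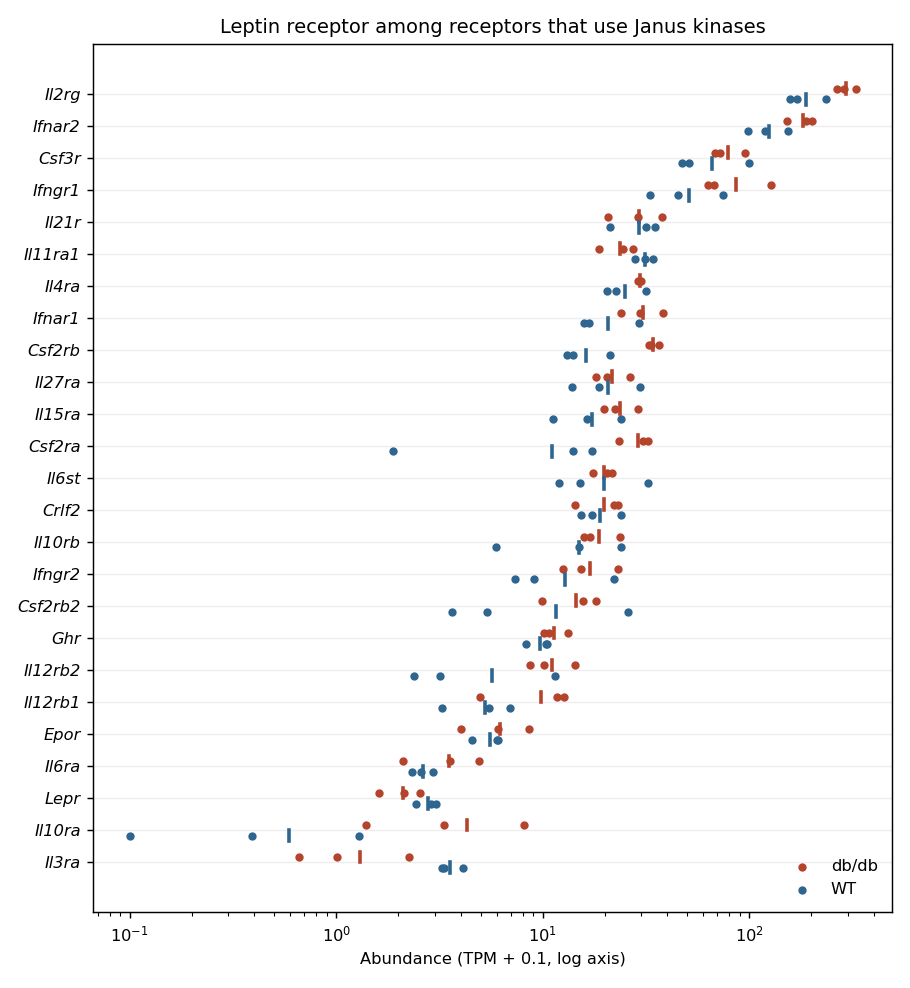
Abundance (TPM + 0.1, log axis) of Lepr and other tested receptor genes that signal through Janus kinases, ordered by their mean over all libraries. Points are libraries, db/db in red above WT in blue, and vertical ticks are group means (n = 3). Lepr lies near the bottom, above Il10ra and Il3ra, Il2rg lies at the top, and Csf2ra and Csf2rb show no overlap between genotypes.

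Jak2, the kinase of the leptin receptor, showed no genotype difference beyond the spread between libraries. Values were 11.95, 23.13 and 21.08 TPM in db/db and 20.99, 12.58 and 16.44 TPM in WT replicates 1, 2 and 3. The 2 lowest libraries were db/db replicate 1 and WT replicate 2, and the differences within experiments were -0.76, 0.83 and 0.34 on the log2 scale. The mean difference was 0.14 (SE 0.38), with a 95% interval of -0.66 to 0.93 (limma, Benjamini-Hochberg adjusted p = 0.967). Jak2 was not the main Janus kinase transcript. Jak1, which serves interferon and gp130 receptors, was 98.9, 156 and 139 TPM in db/db and 92.7, 69.6 and 132 TPM in WT replicates 1, 2 and 3, and was 4.42 to 8.28 times Jak2 in each of the 6 libraries. Jak3, the partner of the common gamma chain, was 30.0 ± 4.27 and 27.2 ± 5.91 TPM, and Tyk2 was 10.7 ± 0.492 and 10.8 ± 3.57 TPM (db/db and WT, SD, n = 3 each).

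Stat3, the transcription factor most tied to leptin, was the most abundant of the 9 transcripts. It was 119, 116 and 132 TPM in db/db and 93.2, 71.3 and 128 TPM in WT replicates 1, 2 and 3. The db/db library was the higher in each experiment, by 0.34, 0.69 and 0.053 on the log2 scale, while WT replicate 3 lay above 2 of the db/db libraries. Across all genes, 22.7% were higher in db/db in all 3 experiments. The log2 fold change was 0.36 (SE 0.28), with a 95% interval of -0.21 to 0.94 (limma, Benjamini-Hochberg adjusted p = 0.920). It was 0.17 after median-of-ratios scaling and 0.16 without WT replicate 2.

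Stat5a and Stat5b encode the closely related STAT5 proteins, which carry cytokine growth signals in HSCs, and lie beside each other on chromosome 11. Stat5a was 62.2, 74.7 and 75.6 TPM in db/db and 56.6, 43.9 and 80.7 TPM in WT replicates 1, 2 and 3. The highest and lowest values both belonged to WT libraries. Stat5b was 32.8, 39.2 and 43.9 TPM in db/db and 27.5, 19.8 and 39.5 TPM in WT, where the db/db library again exceeded its WT partner each time, by 0.24, 0.95 and 0.15 on the log2 scale, with overlap between groups. Neither passed in limma with Benjamini-Hochberg adjustment, Stat5a at a log2 fold change of 0.27 (SE 0.30, 95% interval -0.35 to 0.89, adjusted p = 0.925) and Stat5b at 0.45 (SE 0.34, 95% interval -0.25 to 1.15, adjusted p = 0.920). Both differences were largest in experiment 2, and without WT replicate 2 they were 0.061 and 0.21. Median-of-ratios scaling gave 0.073 and 0.26. The copies share sequence, 5.12% of the 75-base stretches of Stat5a and 6.99% of those of Stat5b, so their split depends on how reads were assigned. Their sum was 110 ± 12.9 TPM in db/db and 89.4 ± 28.6 TPM in WT (SD, n = 3 each).

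Of the other STAT genes, Stat4, which interleukin-12 activates, was 57.6 ± 25.7 TPM in db/db and 39.4 ± 9.16 TPM in WT. Stat6, which interleukin-4 activates, was 41.5 ± 11.4 and 36.7 ± 4.77 TPM, and Stat2 was 22.1 ± 11.5 and 15.9 ± 8.03 TPM (db/db and WT, SD, n = 3 each). In the list of 8 other Janus kinase and STAT genes, which includes Irf9, 0 passed in limma and 0 had an unadjusted p under 0.05. Their median log2 fold change was 0.15, against 0.18 for all genes.

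**Figure D3:**
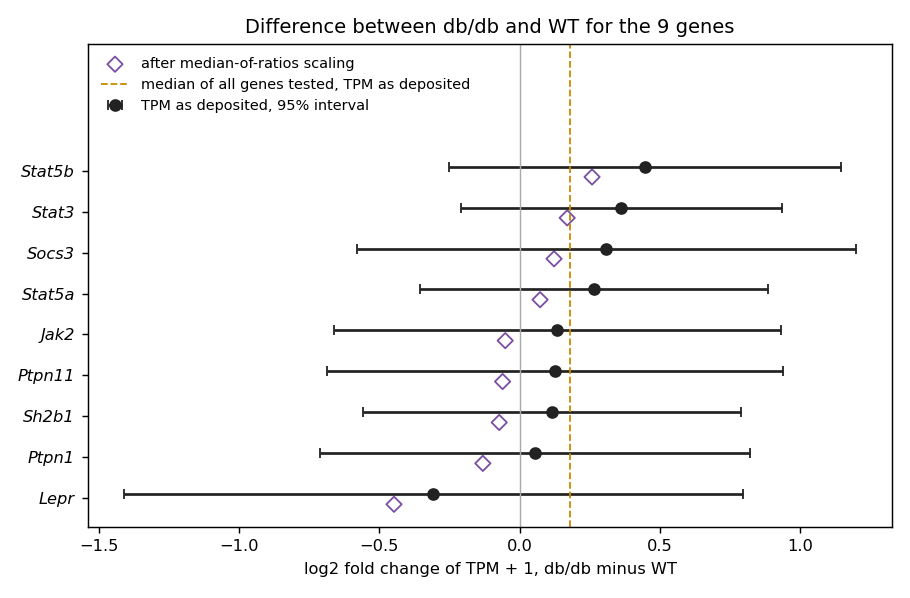
Log2 fold change of TPM + 1, db/db minus WT, for the 9 genes. Filled circles with bars are the limma estimates with 95% intervals on the deposited values, open diamonds show median-of-ratios scaling, and the dashed line is the median of all genes, 0.18. Every interval spans 0, and the widest, that of Lepr, runs from -1.41 to 0.80.

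Socs3, the feedback inhibitor of the leptin receptor, and Cish, a related inhibitor that STAT5 induces, are known targets of STAT dimers, which bind the palindrome TTCNNNGAA. The annotated start regions of both hold it, and are shown with the palindrome in capitals. The sequences are from RefSeq on build GRCm38.p6, for Socs3 chr11:117969467-117969566 on the minus strand, beginning 200 bases before the annotated start of the gene, and for Cish chr9:107296654-107296683 on the plus strand, beginning 5 bases before it.
Socs3: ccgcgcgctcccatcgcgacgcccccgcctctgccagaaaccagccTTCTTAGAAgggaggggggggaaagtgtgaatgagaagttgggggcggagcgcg
Cish: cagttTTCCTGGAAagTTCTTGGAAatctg
The pattern TTCNNNGAA reads the same on both strands, while the middle letters of the matches shown differ between strands. Among 32851 windows of 250 bases before to 50 bases after an annotated start, 8.3% held at least 1 match and 0.457% held 2 or more. Windows were found for 9 of the 9 genes, and Socs3 was the 1 gene among them with a match. Cish had 2 matches, which do not overlap each other. A match describes these letters and is not evidence of binding.

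Socs3 showed no genotype difference beyond the spread between libraries, and its values had the same order over experiments in both genotypes. It was 21.8, 17.6 and 12.8 TPM in db/db and 24.5, 14.1 and 7.0 TPM in WT replicates 1, 2 and 3. Experiment 1 was highest and experiment 3 lowest in both genotypes, and the experiment means spanned 1.20 on the log2 scale against a genotype difference of 0.31 (SE 0.43, 95% interval -0.58 to 1.20, limma adjusted p = 0.929). The differences within experiments were -0.16, 0.30 and 0.79. Without WT replicate 3 the fold change was -0.12. Immediate early genes, which cell handling can also induce, were set beside Socs3. Their summed level was 8020, 7470 and 7394 TPM in db/db and 7316, 5267 and 7191 TPM in WT replicates 1, 2 and 3, highest in experiment 1 in both genotypes like Socs3. In db/db it had the order of Socs3 over all 3 experiments, and in WT it was lowest in experiment 2. On the deposited scale every db/db sum lay above every WT sum. Divided by the median-of-ratios size factors, the sums of immediate early genes overlap between genotypes. The part of these genes in the Socs3 values was not tested. Of the 21 listed, Rhob alone had an unadjusted p under 0.05, at 217 ± 29.3 TPM in db/db and 139.7 ± 44.3 TPM in WT (SD, n = 3 each). Egr1 and Maff followed by p, at 1546 ± 247 and 41.2 ± 12.6 TPM in db/db and 1223 ± 492 and 29.1 ± 8.84 TPM in WT. Zfp36 was the most abundant, at 2128 ± 13.9 TPM in db/db and 1843 ± 86.2 TPM in WT.

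Among the other SOCS genes, Cish stood out by its level and by lack of overlap between genotypes. Cish was 108, 86.1 and 87.3 TPM in db/db and 64.7, 42.2 and 61.4 TPM in WT replicates 1, 2 and 3. The lowest db/db library lay above the highest WT library, as it did for 7.85% of all genes. The log2 fold change was 0.75 (SE 0.29), or 0.56 after median-of-ratios scaling. It did not pass when adjusted over the whole table (limma, Benjamini-Hochberg, adjusted p = 0.808 and unadjusted p = 0.0160). Stat5a and Stat5b did not show that separation, and the ratio of Cish to Stat5a was 1.74, 1.15 and 1.15 in db/db against 1.14, 0.961 and 0.761 in WT replicates 1, 2 and 3. Cish had the smallest p of the listed inhibitors.

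The remaining SOCS genes were lower and overlapped between genotypes. Socs2, which restrains growth hormone signalling and is another STAT5 target, was 15.9 ± 6.67 TPM in db/db and 13.3 ± 4.75 TPM in WT, and highest in experiment 1 in both genotypes, like Socs3. Socs1, the inhibitor of interferon signalling, was 2.96, 1.13 and 0.22 TPM in db/db and 2.49, 2.76 and 1.83 TPM in WT replicates 1, 2 and 3. Usp18, an interferon-induced inhibitor of the type I interferon receptor, was 4.46 ± 1.02 TPM in db/db and 10.2 ± 3.03 TPM in WT (SD, n = 3 each). It had no overlap, and its difference of -1.02 on the log2 scale did not pass (limma adjusted p = 0.899). Cbl, which encodes a ubiquitin ligase that removes activated receptors, was 50.5 ± 18.5 and 33.2 ± 12.3 TPM in db/db and WT. Of the 14 tested inhibitors, Cish alone was higher and Usp18 alone lower at an unadjusted p under 0.05, where 4.1% of all genes were higher and 1.25% lower. None passed over all genes, and the median was 0.18.

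**Figure D4:**
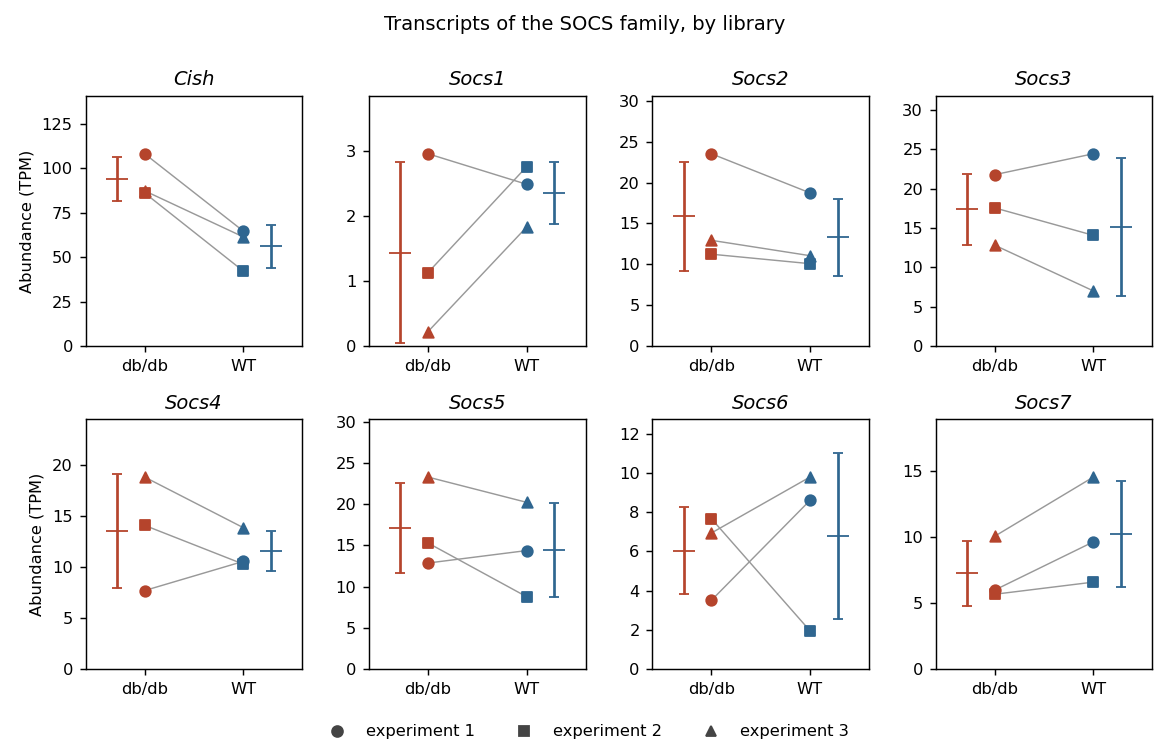
Abundance (TPM, linear axes from 0) of Cish and Socs1 to Socs7 in each library, db/db to the left of WT. Symbols mark experiments 1 to 3, lines join the libraries of an experiment and bars give the mean ± SD (n = 3). Cish is higher in db/db in each experiment, 86.1 to 108 TPM against 42.2 to 64.7 TPM in WT, and Socs3 is highest in experiment 1 in both genotypes.

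The phosphatase genes Ptpn1 and Ptpn11 and the adaptor gene Sh2b1 showed no difference beyond the spread between libraries. Ptpn1, which encodes PTP1B, was 17.2, 19.7 and 31.3 TPM in db/db and 20.2, 16.1 and 28.9 TPM in WT replicates 1, 2 and 3. Ptpn11, which encodes SHP2, was 17.1, 30.0 and 43.9 TPM in db/db and 25.5, 16.8 and 40.1 TPM in WT. Both genes were highest in experiment 3 in both genotypes. Sh2b1 was 35.8, 33.8 and 40.7 TPM in db/db and 26.0, 32.1 and 45.9 TPM in WT, and its highest and lowest values both came from WT libraries. The log2 fold changes were 0.055 for Ptpn1 (SE 0.37, 95% interval -0.71 to 0.82), 0.13 for Ptpn11 (SE 0.39, 95% interval -0.69 to 0.94) and 0.12 for Sh2b1 (SE 0.32, 95% interval -0.56 to 0.79), with limma adjusted p of 0.993, 0.970 and 0.966.

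Related phosphatases and SH2B adaptors ranged widely in abundance. Ptpn6, which encodes SHP1, a brake on many blood cell receptors, was the most abundant on its list, at 85.8 ± 21.9 TPM in db/db and 79.7 ± 21.7 TPM in WT. Ptpn2, which removes phosphate from JAK1 and nuclear STATs, was 25.9, 49.6 and 28.7 TPM in db/db and 21.3, 19.1 and 25.6 TPM in WT replicates 1, 2 and 3, with no overlap (limma adjusted p = 0.919). Sh2b3, which encodes LNK, an inhibitor of cytokine signalling in HSCs, was 24.5 ± 3.22 and 21.1 ± 6.62 TPM, and Sh2b2 was 5.43 ± 1.68 and 5.44 ± 3.04 TPM (db/db and WT, SD, n = 3 each). Dusp22 and Ptprf, the other 2 of smallest p, were 9.77 ± 6.18 and 2.61 ± 2.35 TPM in db/db and 5.29 ± 4.18 and 0.603 ± 0.422 TPM in WT. All 12 genes of the list had fold changes above 0 on the deposited scale, against 68.1% of all genes. Their median was 0.38, or 0.19 after median-of-ratios scaling, against 0.18 and 0.00 for all genes. Under that scaling Ptpn6, Ptprc, Dusp3 and Sh2b2 fell below 0, at -0.083, -0.027, -0.095 and -0.096, and the others stayed above 0. None of the 12 passed in limma and none had an unadjusted p under 0.05.

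By level, the 9 genes fell in the order Stat3, Stat5a, Sh2b1, Stat5b, Ptpn11, Ptpn1, Jak2, Socs3 and Lepr. Their means over all 6 libraries ran from 110 ± 23.2 TPM for Stat3 to 2.34 ± 0.518 TPM for Lepr (SD, n = 6), at percentiles 91.6 and 9.42 of the genes tested. Stat3 exceeded Stat5a in 6 of 6 libraries, Stat5a exceeded Sh2b1 in 6 of 6, and Socs3 exceeded Lepr in 6 of 6. The neighbours between them could not be ordered beyond their spread, since Sh2b1 exceeded Stat5b in 3 of 6 libraries, Stat5b exceeded Ptpn11 in 5 of 6, Ptpn11 exceeded Ptpn1 in 5 of 6, Ptpn1 exceeded Jak2 in 4 of 6 and Jak2 exceeded Socs3 in 3 of 6.

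For 9 of 9 genes the range of the 3 experiment means exceeded the genotype difference on the log2 scale, as it did for 78.1% of all genes, so this was the usual case in the table. The same experiment was highest in both genotypes for 8 of the 9, against 43.2% of all genes, and Jak2 was the exception. For 6 of them, Stat3, Stat5a, Stat5b, Ptpn1, Ptpn11 and Sh2b1, it was experiment 3, whose libraries had the highest size factor of each genotype. After median-of-ratios scaling the same experiment was highest in both genotypes for 4 of the 9, against 35.8% of all genes.

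Ratios within a library do not depend on how libraries are scaled, and were formed for all 36 pairs of the 9 genes. Genotypes did not overlap in 5 pairs, 13.9%, against 10.7% of all pairs of genes above 0 in every library, so the share lay near the background. These 5 pairs are named after their values were seen. The ratio of Stat5a to Stat5b was 1.90, 1.91 and 1.72 in db/db and 2.06, 2.21 and 2.04 in WT replicates 1, 2 and 3, lower in db/db in each experiment, with the reservation on shared reads given above. The ratio of Lepr to Stat3 was 0.0127, 0.0211 and 0.0154 in db/db and 0.0251, 0.0411 and 0.0219 in WT. Lepr was likewise lower relative to Stat5a and Stat5b, while its ratios to the other 5 genes overlapped. The same separation relative to Lepr was seen for 33% of the other genes. The last pair was Stat5b over Ptpn1, at 1.91, 1.99 and 1.40 in db/db and 1.36, 1.23 and 1.37 in WT.

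Beyond the 9 genes, the lists of the wider pathway held 163 genes, of which 130 were tested. These lists include the immediate early genes and the hypothalamic neuropeptide genes, so Rhob is among the genes counted below. They were chosen with earlier results of these data known, and Gfi1, named in the title of the series, is counted too. None of the 130 passed over all genes in limma with Benjamini-Hochberg adjustment, the smallest adjusted p being 0.435. At an unadjusted p under 0.05, 12 were higher in db/db (9.23%, against 4.1% of all genes) and 1 was lower (0.769%, against 1.25% of all genes). Genotypes did not overlap for 13 that were higher and 3 that were lower in db/db, against 7.85% and 2.32% of all genes. Their median log2 fold change was 0.21, near the 0.18 of all genes.

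Cytokine receptor genes made up 7 of those 12. Csf2ra, the GM-CSF binding chain, was 30.6, 32.1 and 23.3 TPM in db/db and 13.9, 1.78 and 17.1 TPM in WT replicates 1, 2 and 3. Csf2rb, the chain shared by the GM-CSF, interleukin-3 and interleukin-5 receptors, was 36.61, 32.61 and 33.39 TPM in db/db and 13.93, 13.03 and 21.11 TPM in WT. Both genes were higher in every db/db library than in any WT library, and neither passed over all genes. The log2 fold changes were 1.69 (SE 0.52) and 1.08 (SE 0.35), with limma adjusted p of 0.581 and 0.607. Csf2rb has a close copy, Csf2rb2, which shares 7.15% of its 75-base stretches, and their sum overlapped between genotypes by narrow margins, at 46.5, 48.1 and 51.4 TPM in db/db and 19.2, 16.6 and 46.9 TPM in WT.

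Il2rg was 267, 288 and 329 TPM in db/db and 170, 157 and 235 TPM in WT replicates 1, 2 and 3, without overlap (log2 fold change 0.67, SE 0.25, limma adjusted p = 0.787). The other 4 receptor genes at an unadjusted p under 0.05 were Il10ra, Ifngr1, Il12rb2 and Ifnar2, with fold changes of 0.56 to 1.65. A pair of receptor genes separated in the other direction without reaching that p. Il3ra, the interleukin-3 binding chain, was 0.910, 2.14 and 0.560 TPM in db/db and 3.23, 4.03 and 3.15 TPM in WT, and Il11ra1, the interleukin-11 receptor, was 23.4 ± 4.32 and 31.1 ± 3.14 TPM. The 25 tested receptors had a median fold change of 0.48, or 0.30 after median-of-ratios scaling, when 4 of them were higher at an unadjusted p under 0.05. Leaving out WT replicate 1 gave a count of 3, and leaving out WT replicate 3 gave 12. Leaving out WT replicate 2 or db/db replicate 3 gave 4 each. Granulocyte markers, 18 in the list and none at 0 throughout, summed to 4355, 2404 and 1804 TPM in db/db and 4917, 603 and 583 TPM in WT replicates 1, 2 and 3, overlapping between genotypes. Yet all 16 tested granulocyte markers had fold changes above 0, with a median of 1.54, or 1.35 after median-of-ratios scaling. In limma 9 of the 16 were higher at an unadjusted p under 0.05, against 4.1% of all genes, and 0 passed over all genes. On the deposited scale, the erythroid, megakaryocyte and immediate early sums given above did not overlap and were higher in db/db. On that scale 68.1% of all genes had fold changes above 0. Divided by the median-of-ratios size factors, the erythroid, megakaryocyte and immediate early sums overlap, so no separation is claimed there. The part of these marker genes in the receptor values was not tested.

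**Figure D5:**
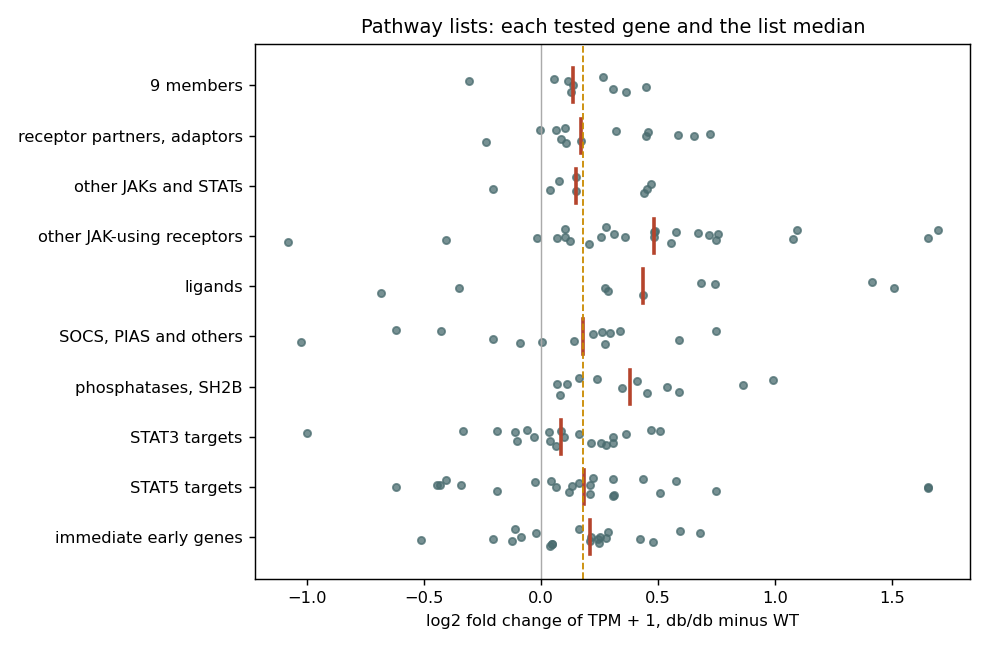
Log2 fold change of TPM + 1, db/db minus WT, for every tested gene of the 9 members and of each pathway list (points, spread vertically for legibility), with the list median (red bar). The list of hypothalamic neuropeptide genes is not drawn. The dashed line is the median of all genes, 0.18. The members' median is 0.14, that of other receptors 0.48, and none of these genes passed in limma.

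Many ligands of these receptors had no signal in the sorted cells. Of 22 listed, 12 were at 0 in every library, among them Lep, Il6, Thpo, Epo, Csf3, Il3 and Ifng. Ebi3, a subunit of interleukins 27 and 35, was the most abundant, at 127, 107 and 102 TPM in db/db and 89.6, 52.9 and 61.2 TPM in WT replicates 1, 2 and 3, without overlap (log2 fold change 0.74, SE 0.28, limma adjusted p = 0.808). Il7, the growth factor of lymphoid precursors, was 7.79 ± 4.04 TPM in db/db and 2.93 ± 3.26 TPM in WT (SD, n = 3 each). Il5 was 21.9 TPM in db/db replicate 3 and listed at 0 in the other 5 libraries. Neuropeptide genes that leptin controls in the hypothalamus were listed at 0 or low, with Agrp, Npy and Cartpt at 0 in every library and Pomc at 10.2, 0.840 and 11.3 TPM in db/db and 2.56, 2.67 and 1.26 TPM in WT.

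Of the 24 listed STAT3 targets, 21 were tested and 0 passed in limma. Of the 21, 0 had an unadjusted p under 0.05, 14 were above 0 and 7 below, and the median was 0.087, below the 0.18 of all genes. Mcl1, a survival gene of the Bcl2 family, was the member of smallest p, at 210, 279 and 265 TPM in db/db and 168, 118 and 271 TPM in WT replicates 1, 2 and 3, with overlap. Vim, the intermediate filament gene, was 186 ± 45.6 TPM in db/db and 134 ± 29.9 TPM in WT, and Gadd45g, a stress response gene, was 3.26 ± 3.73 and 6.06 ± 3.03 TPM. Fos was the most abundant, at 860, 782 and 609 TPM in db/db and 649, 543 and 743 TPM in WT. Pim1, a kinase gene that both STAT3 and STAT5 induce, was 134 ± 19.2 and 121 ± 32.8 TPM (db/db and WT, SD, n = 3 each).

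The list of known STAT5 targets had 24 tested members with a median of 0.19. At an unadjusted p under 0.05, 3 of the 24 were higher in db/db and 0 lower, against 4.1% and 1.25% of all genes, and 0 passed over all genes. The 3 were Gfi1, the repressor named in the title of the series, Cish and Il10ra. The list was chosen with earlier results of these data known, and Il10ra is also among the receptor genes counted above. The count is therefore a description and not independent of those results. Gfi1 was 11.8, 17.3 and 10.2 TPM in db/db and 1.99, 3.88 and 4.75 TPM in WT replicates 1, 2 and 3 (log2 fold change 1.65, SE 0.46, limma adjusted p = 0.435). The most abundant was Mcl1, given above as a STAT3 target too. Myc, a growth regulator, was 191 ± 19.2 TPM in db/db and 154 ± 16.5 TPM in WT, also without overlap (limma adjusted p = 0.920). Pim2, Bcl2l1 and Socs2, other targets tied to survival and feedback, overlapped between genotypes.

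Adaptors that link JAK2 and the receptor to insulin-like signalling were present at moderate levels. Irs2, the insulin receptor substrate that leptin signalling also uses, was 17.3, 14.6 and 12.6 TPM in db/db and 11.1, 5.92 and 9.25 TPM in WT replicates 1, 2 and 3, without overlap (log2 fold change 0.72, SE 0.41, limma adjusted p = 0.919). Irs1 was at most 0.03 TPM in db/db and 0.29 TPM in WT, and Irs4 was listed at 0. Gab2, a scaffold that binds SHP2, was 21.3, 27.7 and 26.1 TPM in db/db and 11.9, 14.3 and 21.7 TPM in WT. Pik3ca, a catalytic subunit of PI3 kinase, was 10.9 ± 5.10 and 6.72 ± 2.19 TPM. Grb2, which couples receptors to the MAP kinase pathway, was the most abundant of the list, at 74.9 ± 19.7 and 72.6 ± 29.6 TPM (db/db and WT, SD, n = 3 each). Of 13 tested genes on this list of receptor partners and adaptors, which also holds Leprot, 0 had an unadjusted p under 0.05. Their median was 0.17.

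The genes whose pattern over the 6 libraries was most like that of Lepr were Polr2k, a small subunit of the RNA polymerases, Fam161b and Cspp1, with Pearson's r of 0.97 on the log2 scale for each. For Socs3 they were Cyp4f13, Sh2b2 and Eri3, with r of 0.99, 0.96 and 0.95. With 11930 genes compared over 6 libraries, 43 genes exceeded an r of 0.9 for Lepr and 27 for Socs3, so such values are a description of these libraries.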

How the data were processed

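RNA of 6 HSC libraries was amplified, made into stranded mRNA libraries and read as pairs of 75 bases, per the labels' protocols. The deposited values are TPM per gene symbol, made by the authors with RSEM and Bowtie2 on build mm9, per the submitters' processing notes. Versions and annotation are not given in the sources used here, and depth is unknown. From these values, limma 3.58.1 in R 4.3.3 compared db/db with WT on log2(TPM + 1) over genes averaging at least 1 TPM. Genotype was the only term, with a trended prior, two-sided tests and Benjamini-Hochberg adjustment over all 11931 genes. The threshold was an adjusted p of 0.05. Fold changes on this scale understate those of low genes. P-values measure the spread between libraries, which is not stated to be between single mice.

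The members and all lists were chosen with earlier results of these data known. Genes were named by rule: the 9 members, Leprot, from each list up to 3 of smallest p and the most abundant, and for Lepr and Socs3 the 3 of highest Pearson's r; others were named for their role, with values seen. Some genes of the lists are not reported here by name. Experiments pair the libraries, per the labels. Within experiments, deviations of db/db and WT libraries from their group means correlated at 0.040, 0.012 and 0.16, and between experiments at -0.12 to 0.081. Any 2 libraries shared identical values at no more than 0.654% of genes, so each counted once. Alternatives were pseudocounts of 0.1 and 0.5, other filters, scalings and priors, the replicate block, and leaving out each library. The procedure was tested on simulated data. Promoter and transcript sequences came from RefSeq (GRCm38.p6) and GENCODE M21, whose build is later than that of the files, so no coordinate was joined to a value.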

Additional observations from a re-analysis of the deposited data

How the results depend on the processing

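None of the 9 genes and none of the other pathway genes passed in limma under any alternative run, the smallest adjusted p of the 9 being 0.553. Lepr stayed below 0 and Stat3, Stat5a and Stat5b above 0 in every alternative. The genes without a steady sign were Jak2, Ptpn1, Ptpn11, Sh2b1 and Socs3. Median-of-ratios scaling gave log2 fold changes of -0.051 for Jak2, -0.13 for Ptpn1, -0.061 for Ptpn11 and -0.073 for Sh2b1, and quantile normalization gave -0.070, -0.14, -0.060 and -0.074. Leaving out 1 library gave -0.041 to 0.41 for Jak2, -0.19 to 0.27 for Ptpn1, -0.18 to 0.48 for Ptpn11, -0.066 to 0.33 for Sh2b1 and -0.12 to 0.71 for Socs3, each set against a limma SE of at least 0.32. The count of 4 genes over the whole table was 0 with no filter, 0 without a trend in the prior, 1 with a robust prior, 1 after median-of-ratios scaling, 1 after quantile normalization, and 0 (without db/db replicate 2) to 16 (without WT replicate 1) on leaving out 1 library; the cause was not tested. With the replicate block, 6 genes passed over the table and none of the 9, and the block changed no call of theirs (adjusted p 0.735 to 0.978). At a mean of at least 5 TPM, Lepr was not among the genes tested. The permutation p of Lepr was 0.1, the smallest possible, after median-of-ratios scaling. Leave-one-out counts of the receptor list and the overlap of the 9 genes after scaling were added after seeing the data. The narrowest 95% interval of the 9, that of Stat3, ran from -0.21 to 0.94, and no difference within it can be set aside.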
